A study of Mus musculus with 10 samples.

Results

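The forkhead family comprised 41 genes, out of 20665 protein-coding genes on the 19 mouse autosomes in the RefSeq annotation of GRCm38.p6 (the mm10 assembly). They were chosen by symbol alone, as Fox followed by a letter from a to s and a number, and this rule uses no measured value, although the family was proposed with earlier results of these data known. Another 3 forkhead genes lie on X and were left out by the same rule. The 41 genes were divided into 11 members of the short subfamilies Foxa, Foxc, Foxd and Foxf, 15 members of the long subfamilies Foxj, Foxk, Foxn, Foxo and Foxp, and 15 members of other subfamilies. The names short and long fit most members by span: 25 of the 41 were under 10 kb, but Foxa3 of the short set spanned 10.3 kb and Foxj1 of the long set 4.80 kb. Exons were not analysed here, so whether the short members have 1 exon was not checked.

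The study mapped 5-carboxylcytosine (5caC), a product of 5-methylcytosine oxidation, in the DNA of mouse embryonic stem cells, CG by CG. Cells labelled wt and cells labelled Tdg were grown without feeders in serum medium with LIF, or in the same medium with the GSK3 inhibitor CHIR99021 (3 µM) and the MEK inhibitor PD0325901 (1 µM), called serum-2i. Each of the 5 groups had 2 technical replicates, so the spread between cultures is unknown. The fifth group, control DNA of serum-grown cells with a triple Tet knockout, has no entry in the table and is not analysed here. The labels name Tdg without the kind of alteration, and give no line or clone. The cell type could not be checked with marker genes, because the table holds a DNA mark and no expression.

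Forkhead factors share a winged-helix DNA-binding domain and act mostly as regulators of cell identity, and several of them, such as the Foxa pioneer factors, can bind closed chromatin. Tet enzymes oxidise 5-methylcytosine stepwise to 5caC, and thymine DNA glycosylase, encoded by Tdg, excises 5caC so that an unmodified cytosine can be restored. In embryonic stem cells many genes of lineage-restricted forkhead factors are silent, whereas Foxd3, Foxh1, Foxo1 and Foxp1 have been linked to pluripotency or early lineage signalling.

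The table gave each group's mean coverage, the number of reads at a listed CG site averaged over the 2 technical replicates. A group listed sites only from a minimum upward (6 in the Tdg groups, 3 in serum wt and 4 in serum-2i wt), so a site without an entry has an unknown value and not a value of 0. The whole table listed 8685 sites in serum wt cells, 110753 in serum-2i wt, 374488 in serum Tdg and 689303 in serum-2i Tdg cells. Forkhead genes held 18, 280, 1087 and 1543 of these sites in the same order. Their share of all summed coverage was 0.242%, 0.255%, 0.306% and 0.227%. Mean coverage per listed forkhead site was 5.81, 8.09, 21.0 and 18.1, close to the 4.97, 8.04, 19.99 and 17.9 over all sites of each group. The share of the family thus peaked in serum Tdg cells, although serum-2i Tdg cells listed more sites.

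Every one of the 41 members had a listed site in serum Tdg cells, against 28 in serum-2i Tdg, 7 in serum wt and 20 in serum-2i wt cells, which is 100%, 68.3%, 17.1% and 48.8% of the family. Over all protein-coding genes these shares were 68.1%, 76.8%, 16.1% and 58.1%, so the family stood above that background in serum Tdg cells, near it in serum wt and below it in both serum-2i groups. By length, 44.1% of all protein-coding genes under 10 kb had a site in serum Tdg and 48.8% in serum-2i Tdg cells. Among the 25 forkhead members under 10 kb, 25 (100%) and 12 (48%) had one, and all longer members had one in both Tdg groups. The family thus lay near or above its length classes in serum-2i Tdg cells, and below background only when lengths were mixed. In serum-2i wt cells 16% of the members under 10 kb had a site, against 25.5% of that class. Listed forkhead positions numbered 2225 over the 4 groups, and 1577 of them (70.9%) were listed in 1 group alone, close to the 73.8% of all autosomal positions. A single position, in Foxf1 at chr8:121086866, was listed in all 4 groups, with coverage 8 in serum wt, 8.5 in serum-2i wt, 68.5 in serum Tdg and 23 in serum-2i Tdg cells.

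**Figure D1:**
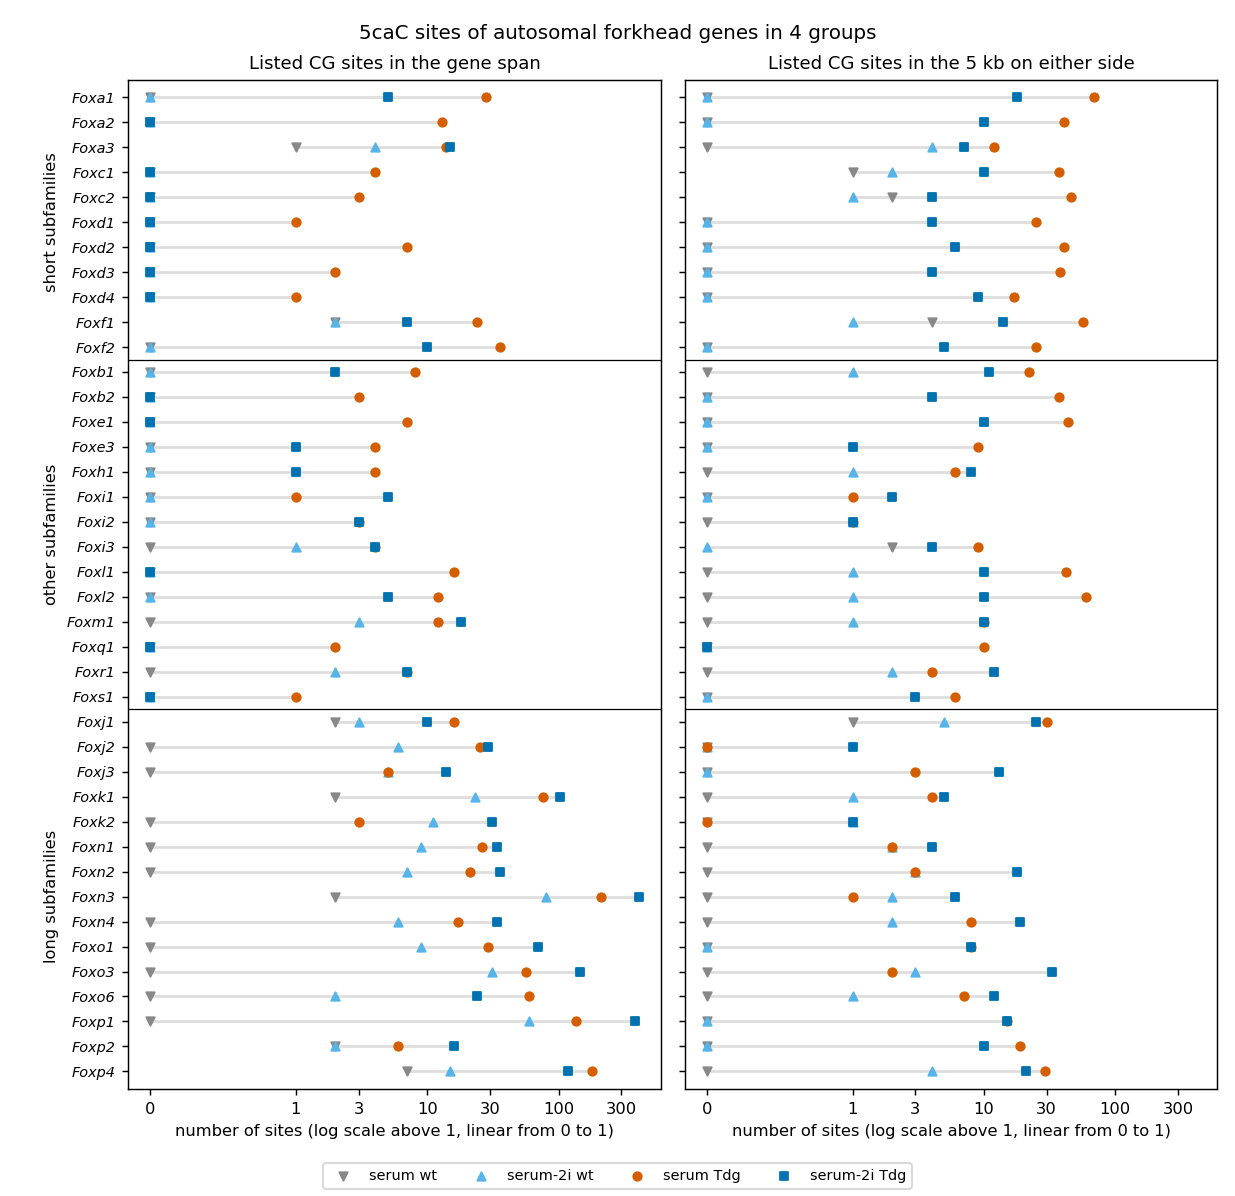
Number of listed 5caC sites of the forkhead genes, 1 gene per line, in the gene span (left) and in the 5 kb on either side together (right). The horizontal axis is logarithmic above 1 and linear from 0 to 1, each symbol is 1 group, a symbol at 0 means that no site was listed, and symbols at the same value overlap. Serum Tdg (orange circles) lies to the right of serum-2i Tdg (dark blue squares) in most short and other subfamilies, as for Foxf2 with 36 against 10 sites, and to the left of it in most long subfamilies, as for Foxo3 with 56 against 146.

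Promoter sequences of 300 bases (250 before and 50 after the start) were given by RefSeq on GRCm38.p6 for 26 members, in 30 windows, and 15 members had none. These sequences settle how the table counts positions: all 13994 listed sites that fell in any autosomal promoter window were on the C of a CG when the listed number was counted from 0, and 0 were when it was counted from 1. Coordinates below are therefore given as the listed number plus 1. Of the 30 forkhead windows 20 (66.7%) held no listed CG in any group, against 77.1% of all protein-coding windows. No forkhead window had a listed CG in wt cells, as was so for 97.8% of all windows. Windows dense in CGs were empty: the 9 windows with at least 30 CGs, of Foxc1, Foxi3, Foxj2, Foxj3, Foxk2, Foxo1, Foxo3, Foxp1 and Foxp4, held 344 CGs and 0 listed sites. Over all protein-coding windows of that CG number, 0.352% of CGs were listed in serum Tdg and 0.0205% in serum-2i Tdg cells, so 0 of 344 lies close to that background. In the 5 forkhead windows with fewer than 10 CGs, 4 of 30 CGs (13.3%) were listed in serum Tdg and 8 (26.7%) in serum-2i Tdg cells, against 8.15% and 7.72% over all such windows. Of these 8, 4 lay in a single Foxp1 window, 3 in that of Foxi1 and 1 in that of Foxi2. The Foxn1 and Foxn3 windows had none in either Tdg group. Neighbouring CGs can share reads, so the listed CGs of a window are not independent.

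The 250 bases before the start of 5 short genes show these differences in CG number and in listed sites. They run 5′ to 3′ on the gene's strand, and capitals mark CGs listed in a Tdg group. The stretches are chr11:34208090-34208339 (minus strand) for Foxi1, chr4:114926068-114926317 (minus) for Foxe3, chr13:98353995-98354244 (plus) for Foxd1, chr4:99656049-99656298 (plus) for Foxd3 and chr13:31625566-31625815 (plus) for Foxf2.
Foxi1: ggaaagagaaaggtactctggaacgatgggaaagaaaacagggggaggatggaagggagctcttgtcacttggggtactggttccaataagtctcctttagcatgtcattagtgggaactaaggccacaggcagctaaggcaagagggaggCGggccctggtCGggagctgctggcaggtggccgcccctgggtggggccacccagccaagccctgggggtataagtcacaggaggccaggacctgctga
Foxe3: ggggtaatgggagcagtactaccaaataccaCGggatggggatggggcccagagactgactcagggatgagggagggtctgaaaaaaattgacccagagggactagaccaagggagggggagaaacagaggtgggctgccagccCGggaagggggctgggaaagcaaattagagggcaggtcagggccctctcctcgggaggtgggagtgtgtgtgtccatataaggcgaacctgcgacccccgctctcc
Foxd1: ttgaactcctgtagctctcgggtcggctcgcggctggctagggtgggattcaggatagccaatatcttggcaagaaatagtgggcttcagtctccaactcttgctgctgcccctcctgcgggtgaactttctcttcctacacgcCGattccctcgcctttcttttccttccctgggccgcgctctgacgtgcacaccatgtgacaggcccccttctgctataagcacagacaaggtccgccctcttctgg
Foxd3: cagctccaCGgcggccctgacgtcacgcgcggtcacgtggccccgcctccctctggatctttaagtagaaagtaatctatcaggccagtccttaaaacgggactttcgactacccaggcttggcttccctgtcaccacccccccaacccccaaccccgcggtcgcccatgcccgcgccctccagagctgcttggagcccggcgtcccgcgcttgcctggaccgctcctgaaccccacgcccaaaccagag
Foxf2: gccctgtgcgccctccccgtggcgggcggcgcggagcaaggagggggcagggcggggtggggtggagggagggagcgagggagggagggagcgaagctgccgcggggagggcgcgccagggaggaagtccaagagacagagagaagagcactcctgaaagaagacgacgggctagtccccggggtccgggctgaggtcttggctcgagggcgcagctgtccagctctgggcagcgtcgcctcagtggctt
The Foxi1 stretch had 4 CGs, of which the CG 88 bases before the start had coverage 11 in serum Tdg and 17.5 in serum-2i Tdg cells, and the CG 99 bases before it 6.5 in serum-2i Tdg cells alone. Foxi1 encodes a factor of inner ear and kidney ion-transporting cells. The stretch of Foxe3, a lens factor, had 6 CGs, and those 106 and 219 bases before the start had coverage 39.5 and 18 in serum Tdg cells with no entry in serum-2i Tdg cells. Foxd1, a factor of kidney stroma, had 12 CGs with 1 listed at coverage 6, and Foxd3, a factor of neural crest and pluripotent cells, had 21 CGs with 1 listed at 9.5, both in serum Tdg cells alone. The 21 CGs of the Foxf2 stretch had no entry in any group, although the gene span behind it had 36 listed sites in serum Tdg cells. The stretches thus had 0 to 2 listed CGs each, and those of Foxi1 and Foxe3, with the fewest CGs, had 2. They are examples, and other promoter windows went the other way. The Foxa3 window, with 22 CGs, had 2 listed, and the Foxb2 window, with 10 CGs, had none.

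Comparing the media in Tdg cells shows how listed 5caC coverage at these genes differed between the culture states. It was expressed as the log2 ratio of a gene's share of its group's summed coverage, with an exact conditional 95% interval from the reads of both replicates. Each interval covers counting error only, since PCR copies are not independent molecules and a read can cover several CGs. A gene was called higher or lower at a difference of at least 2-fold with an interval that left out 0. Without a value per replicate no test between groups was possible, and no p-value is given. Among all 13607 protein-coding genes listed in both media, 27.5% were higher in serum-2i, 25.6% were lower, and the median was 0.05.

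Forkhead genes lay mostly on the lower side in serum-2i. Of the 28 members listed in both media, 2 were higher (Foxk2 and Foxi1), 14 were lower and 12 were between, with a median of -0.99. A further 13 members were listed in serum Tdg cells alone, as were 2.9% of the 16352 protein-coding genes with a site in either Tdg group, and 0 members were listed in serum-2i Tdg cells alone (13.9% of those genes). The lower and serum-only members were mainly short genes, and short genes as a class were also lower: among all protein-coding genes under 10 kb, 52.7% were lower, 11% were higher, and the median was -1.12. The 25 forkhead members under 10 kb had 11 lower and 1 higher of 12 listed in both, with a median of -2.23, and 13 listed in serum alone. In that class 9.59% of genes with a site were listed in serum alone and 18.3% in serum-2i alone.

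In the short subfamilies the difference between media was largest. Their 11 members held 133 sites in serum Tdg but 37 in serum-2i Tdg cells, and the summed coverage gave a log2 ratio of -3.25 (95% interval -3.35 to -3.15). All 4 members listed in both media were lower, with a median of -3.28, and the other 7 were listed in serum alone. Foxa1 (chr12:57540628-57548029), a pioneer factor of endoderm-derived organs, had 28 sites with summed coverage 534 in serum Tdg cells, 5 sites with 51.5 in serum-2i Tdg cells and none in either wt group. Its log2 ratio was -4.10 (-4.40 to -3.80). The span overlaps Ttc6, whose annotated span also holds 8 of the 28 and 2 of the 5 sites. Foxf2 (chr13:31625816-31631406), a mesenchymal factor of palate and brain vessels, had 36 sites with 779.5 against 10 with 125.5, none in wt cells, and a ratio of -3.36 (-3.55 to -3.16). Foxf1 (chr8:121084386-121088154), needed for lung mesenchyme and vessels, had 24 sites with 824.5 against 7 with 147, and 2 sites in each wt group; its ratio was -3.21 (-3.39 to -3.03). The intervals of Foxf1 and Foxf2 overlap.

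Foxa3 (chr7:19013283-19023539), a liver factor and the longest of the short set, stood apart from its set in the number of sites. It had 14 sites in serum Tdg and 15 in serum-2i Tdg cells, but summed coverage of 296.5 and 179, for a ratio of -1.45 (-1.64 to -1.26) that fell short of a call by listed sites (-0.78), and it had 1 site in serum wt and 4 in serum-2i wt cells. Foxa2 (chr2:148042877-148046969), a factor of endoderm, node and notochord, had 13 sites with summed coverage 177.5 in serum Tdg cells and no entry in the other groups. The 6 remaining members of the set had few sites, all in serum Tdg cells. Foxd2 had 7 sites (coverage 147), Foxc1, a factor of eye and vessel mesenchyme, 4 (45.5), Foxc2, a factor of lymphatic valves, 3 (34.5), and Foxd3 2 (47). Foxd1 and Foxd4 had 1 site each, with coverage 9.5 and 7.5, near the minimum of 6 for listing in either Tdg group.

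At the 27 positions of the short subfamilies listed in both Tdg groups, coverage was higher in serum at 25, with a median log2 ratio of coverage of -1.49. These 27 were 73.0% of the serum-2i sites and 20.3% of the serum sites of the set. At the 484 such positions of the long subfamilies the median was 0, and at all 196610 such autosomal positions it was 0.05. The 27 positions lie in only 4 of the 11 members, Foxa1 (4), Foxa3 (6), Foxf1 (7) and Foxf2 (10). At the 23 such positions of the other subfamilies coverage was higher in serum at 13 and in serum-2i at 9, with a median of -0.13.

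**Figure D2:**
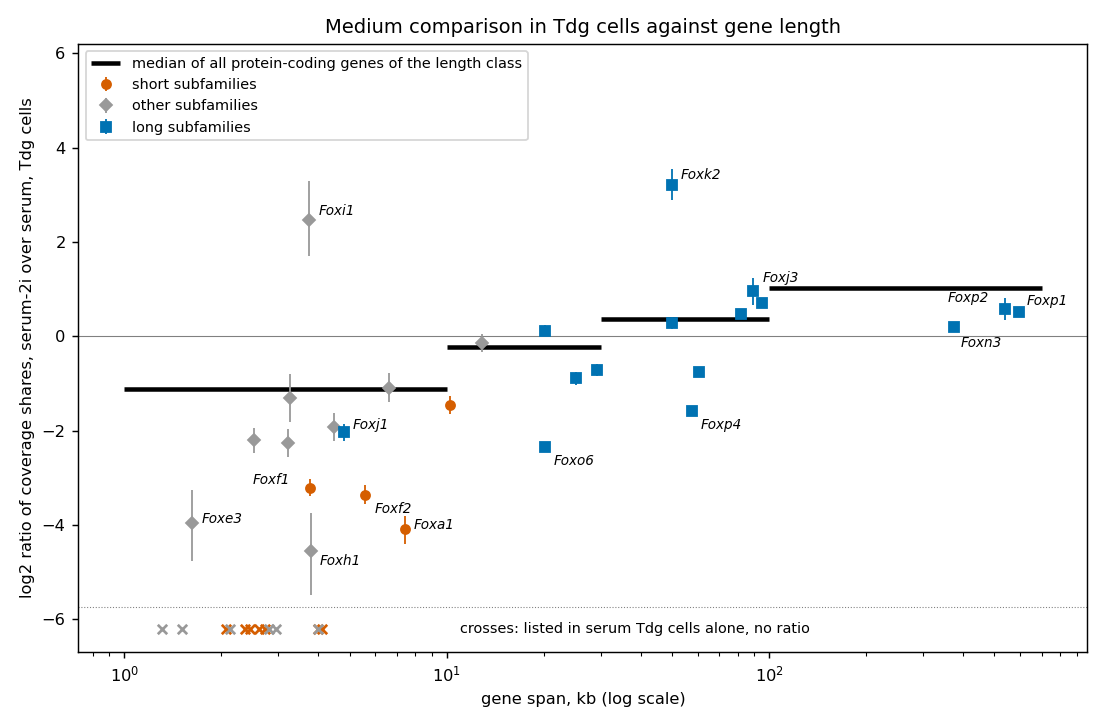
Log2 ratio of coverage shares, serum-2i over serum in Tdg cells, of each forkhead gene listed in both media (vertical axis) against the length of its span in kb (horizontal axis, logarithmic). Bars on the points are exact 95% intervals for counting error, black lines are medians over all protein-coding genes of a length class (-1.12, -0.23, 0.37 and 1.02 from short to long), and crosses below the dotted line are the 13 genes listed in serum Tdg cells alone. Among genes under 10 kb all forkhead points except Foxi1 and Foxr1 lie below the class median.

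By coverage ratio the other subfamilies also lay mostly on the lower side in serum-2i. By listed sites the lower calls of Foxe3, Foxh1, Foxi2, Foxi3 and Foxr1 were lost. Their 15 members held 90 sites in serum Tdg and 46 in serum-2i Tdg cells. Of 9 listed in both media, 7 were lower, 1 (Foxi1) was higher and 1 (Foxm1) was between, with a median of -1.92, and 6 were listed in serum alone. Foxh1 (chr15:76667829-76671614), the DNA-binding partner of SMAD2 in NODAL signalling, had the lowest ratio of the family, -4.55 (-5.49 to -3.74), from 4 sites with coverage 92.5 against 1 site with 6.5. By share of listed sites it was -2.88, which was not called, and with 5 kb flanks -1.35; the flanks alone had coverage 140.5 against 144.5 and were between (-0.68). Foxe3 had 4 sites (85.5) against 1 (9), a ratio of -3.97 (-4.76 to -3.27). These 2 ratios rest on a single site near the listing minimum in serum-2i, and the Foxe3 call too was lost by listed sites (-2.88). Foxl2 (chr9:98955607-98958126), a determinant of ovarian identity, had 12 sites (230) against 5 (82.5), a ratio of -2.20 (-2.47 to -1.94), and none in wt cells. Foxb1, a factor of the hypothalamus, had 8 sites (189) against 2 (65), a ratio of -2.26 (-2.56 to -1.97).

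Foxi1 (chr11:34204341-34208089) went the other way, with 1 site of coverage 8 in serum Tdg cells and 5 sites with 72.5 in serum-2i Tdg cells, a ratio of 2.46 (1.71 to 3.30); by listed sites it was 1.44 and not called. Its relatives did not: Foxi3, a factor of teeth, hair and pharyngeal arches, had 4 sites in each medium but coverage 153.5 against 67 (ratio -1.92), and Foxi2 had 3 sites in each with 42 against 28 (-1.31). Most of the Foxi3 coverage in serum came from 1 site with 123.5. Foxr1 had 7 sites in each medium, with coverage 102 and 79 (-1.09). By listed sites the ratios of Foxi2, Foxi3 and Foxr1 were -0.88, and the 3 calls were lost. Foxm1 (chr6:128362994-128375886), an activator of mitotic genes, had 12 sites (188.5) against 18 (282.5) and 3 in serum-2i wt cells, and its ratio of -0.14 (-0.33 to 0.05) included no difference. Foxl1 (chr8:121127685-121130644), a factor of gut mesenchyme, had 16 sites with coverage 209 in serum Tdg cells and none in the other groups. Also among the serum-only members were Foxe1, a thyroid factor, with 7 sites, Foxb2 with 3, Foxq1 with 2 and Foxs1 with 1.

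The long subfamilies held most forkhead sites, 864 in serum Tdg and 1460 in serum-2i Tdg cells, and all 15 members were listed in both media. Of these, 1 (Foxk2) was higher, 3 (Foxj1, Foxo6 and Foxp4) were lower and 11 were between, with a median of 0.19. Per length they were sparser than the short ones in serum Tdg cells, 0.412 against 2.81 sites per kb of span, and nearly level in serum-2i Tdg cells, 0.697 against 0.781. Density also fell with length over all protein-coding genes. It went from 0.795 sites per kb under 10 kb to 0.114 over 100 kb in serum Tdg cells, and from 0.597 to 0.294 in serum-2i Tdg cells. Of the 2095 kb of the long set, 1512 kb lie in its 3 members over 100 kb. Foxj1 (chr11:116330704-116335499), the master regulator of motile cilia and the only short gene of this set, had 16 sites (399) against 10 (160), a ratio of -2.04 (-2.23 to -1.85), with 2 sites in serum wt and 3 in serum-2i wt cells.

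Of the 6 members of 10 to 30 kb, 0 were higher and 2 (Foxo6 and Foxa3) were lower, against 22.4% and 30% of all genes of that length. Foxo6 (chr4:120267078-120287261), a neuronal member of the insulin-regulated FOXO factors, had 59 sites with coverage 1579 in serum Tdg cells, 24 with 510 in serum-2i Tdg cells, 2 in serum-2i wt and none in serum wt cells, a ratio of -2.35 (-2.46 to -2.25). Foxj2 had 25 sites (450.5) against 29 (401.5) and 6 in serum-2i wt cells (-0.89, -1.03 to -0.75). Foxn1, a thymic epithelial factor, had 26 (511) against 34 (514) and 9 in serum-2i wt cells (-0.71, -0.84 to -0.59). Foxn4, a factor of retinal progenitors, had 17 (371.5) against 34 (661.5) and 6 in serum-2i wt cells (0.11, -0.02 to 0.24). The median over all genes of this length was -0.23, so Foxo6 alone lay more than 2-fold from it among these long-set genes.

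Between 30 and 100 kb, 1 of 7 members was higher and 1 was lower, against 32.2% and 13.9% of all genes of that length, whose median was 0.37. Foxk2 (chr11:121259987-121309900) had 3 sites with coverage 40.5 in serum Tdg cells, 31 with 618.5 in serum-2i Tdg cells and 11 in serum-2i wt cells, the highest ratio of the family at 3.21 (2.89 to 3.55). A single Foxk2 site with coverage 133.5 in serum-2i Tdg cells, at chr11:121286306, was also listed in serum-2i wt cells (27.5) and in neither serum group. Foxp4 (chr17:47867133-47924632) had 180 sites with 4213.5 against 118 with 2311.5, 7 in serum wt and 15 in serum-2i wt cells, a ratio of -1.59 (-1.64 to -1.54). Its 3.13 sites per kb in serum Tdg cells ranked 11 of 4882 genes of that length, and its 2.05 per kb in serum-2i Tdg cells ranked 41. Foxk1, like Foxk2 a forkhead repressor of autophagy genes, had 76 sites (1669) against 102 (1632.5), with 2 in serum wt and 23 in serum-2i wt cells, a ratio of -0.75 (-0.82 to -0.68). The paralogues Foxk1 and Foxk2 thus differed in density and in the sign of their ratios. Foxk1 was between, however, and both genes had more listed sites in serum-2i Tdg than in serum Tdg cells.

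The FOXO factors are held in the cytoplasm by AKT and enter the nucleus when PI3K signalling falls. Foxo3 (chr10:42181845-42276695) had 56 sites (1092) against 146 (2944) and 31 in serum-2i wt cells, a ratio of 0.71 (0.64 to 0.78). Foxo1 (chr3:52268337-52350109) had 29 (473) against 70 (1081) and 9 in serum-2i wt cells, a ratio of 0.47 (0.36 to 0.58). Foxn2 had 21 (437.5) against 36 (877.5) and 7 in serum-2i wt cells (0.28, 0.16 to 0.40). Foxj3 had 5 (66) against 14 (210.5) and 5 in serum-2i wt cells (0.95, 0.67 to 1.24). None of these 4 had a site in serum wt cells, and all 4 lay within 2-fold of the class median.

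The 3 members over 100 kb were between, with ratios below the median of 1.02 over all genes of that length, of which 50.9% were higher and 3.27% were lower. Foxn3 (chr12:99190081-99563667), a factor of the DNA damage checkpoint, had the most sites of the family, 210 with coverage 4098 in serum Tdg cells, 412 with 7729.5 in serum-2i Tdg cells, 2 in serum wt and 80 in serum-2i wt cells, a ratio of 0.19 (0.15 to 0.23). Foxp1 (chr6:98925342-99522746), a factor of B cells and neurons with an isoform specific to pluripotent cells, had 135 (2931) against 384 (6885), 59 in serum-2i wt and none in serum wt cells, a ratio of 0.51 (0.47 to 0.55). Foxp2 (chr6:14901349-15441977), known for its role in speech and motor circuits, was nearly as long as Foxp1 but had 6 sites (101) against 16 (248) and 2 in each wt group, a ratio of 0.57 (0.34 to 0.82). Its density in serum Tdg cells ranked 1913 of 2313 genes over 100 kb, against 514 for Foxp1 and 172 for Foxn3.

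Within the long genes the sites were not spread evenly. When spans were divided into 10 equal bins from the lower coordinate, bin 2 of Foxp1 held 53 of 135 sites in serum Tdg cells (39.3%) and 72 of 384 in serum-2i Tdg cells (18.8%). Foxp4 had 51 of 180 and 30 of 118 sites in bin 2, and Foxn3 had 55 of 210 and 79 of 412 in bin 5. The same bin held most sites in both media in these 3 genes. In Foxk1 the fullest bin in serum Tdg cells was bin 7, with 16 sites, and it held 6 in serum-2i Tdg cells. For members over 10 kb, 3.89% of sites in serum Tdg cells (exact binomial 95% interval 2.71 to 5.39) and 1.82% in serum-2i Tdg cells (1.20 to 2.64) lay within 1 kb of a span end, a zone that makes up 1.51% of their length. Over all protein-coding genes above 10 kb these shares were 8.44% and 3.71%, with a zone of 2.74%.

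**Figure D3:**
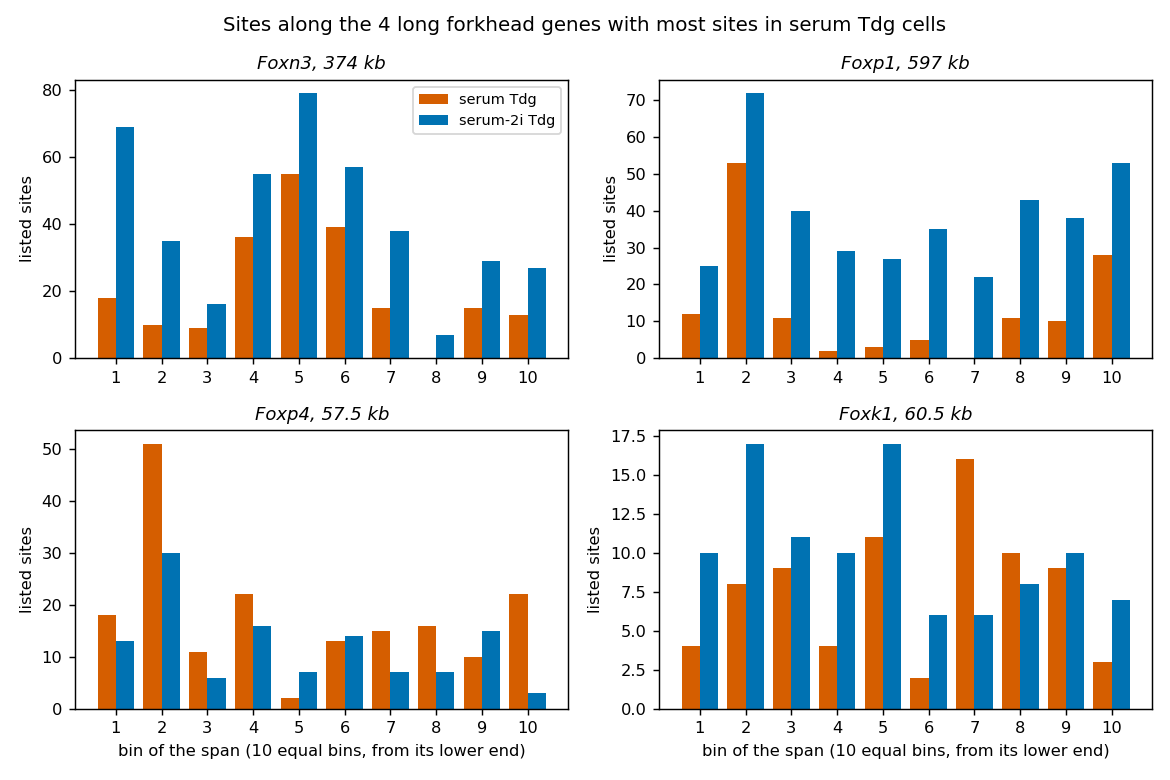
Listed 5caC sites in 10 equal bins of the span, counted from the lower coordinate, of the 4 long forkhead genes with most sites in serum Tdg cells. Orange bars are serum Tdg and blue bars serum-2i Tdg cells, and each panel has its own vertical scale. Foxp1 has 53 of its 135 serum sites in bin 2, whereas Foxk1 has at most 16 of 76 in any bin.

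The regions beside the short genes held more sites than the genes themselves. In the 5 kb on either side of the 25 members under 10 kb lay 708 sites in serum Tdg and 190 in serum-2i Tdg cells, against 213 and 60 in the spans. That is 2.83 and 0.76 sites per kb beside the genes and 2.48 and 0.699 inside, and the flanks were the denser in 14 of the 25 in serum Tdg and in 17 in serum-2i Tdg cells. Over all protein-coding genes under 10 kb the flanks were sparser than the spans, 0.487 against 0.795 sites per kb in serum Tdg and 0.434 against 0.597 in serum-2i Tdg cells. The flanks were the denser in 28.6% of these genes in serum Tdg and in 38.0% in serum-2i Tdg cells. Of 14 Sox genes under 10 kb they were the denser in 10 and 12, and of 4 Tbx genes in 1 in each medium. No genome sequence was used, so these densities are per length, and the number of CGs per kb was not taken into account. The flanks of Foxc2 and Foxl1, which lie 8.79 kb apart, overlap, and sites there count for both.

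By coverage ratio the flanks of 20 of the 24 short members with flank sites in both media were lower in serum-2i, 1 (Foxr1) was higher and 3 were between, with a median of -3.50. Among all genes under 10 kb, 45.4% of flanks were lower, 14.6% were higher, and the median was -0.82. All 11 members of the short subfamilies had lower flanks, with a median of -3.61. The flanks also gave values where the spans had none. Foxd3 had 38 flank sites in serum Tdg and 4 in serum-2i Tdg cells (ratio -3.87, -4.14 to -3.61), Foxd1 25 against 4 (-4.44, -4.80 to -4.10), Foxd2 41 against 6 (-4.60, -4.86 to -4.36) and Foxc2 46 against 4 (-5.10, -5.38 to -4.83). Foxa2 had 41 against 10 (-3.22, -3.43 to -3.01). Foxl2 had more flank sites than any short member but Foxa1, 60 against 10 (-3.95, -4.13 to -3.78). Foxi1, with its higher span, had 1 flank site against 2, and its ratio of 0.40 (-0.35 to 1.20) included no difference.

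Of the long genes, the flanks of 4 were higher (Foxj3, Foxn2, Foxn3 and Foxo3), and those of Foxp2 and Foxp4 were lower, as were those of Foxa3 and Foxm1 of the other sets. Foxo3 had 2 flank sites in serum Tdg and 33 in serum-2i Tdg cells (3.88, 3.49 to 4.29). Foxp2 differed between span and flanks, with 19 flank sites against 10 and a flank ratio of -2.28 (-2.49 to -2.07). Among all genes over 10 kb, 18.2% of flanks were higher and 34.5% were lower.

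In serum Tdg cells the density of sites in the short genes was lower in the 1 kb inside the gene ends than at 1 to 2 kb inside or outside. It was 1.72 sites per kb (exact Poisson 95% interval 1.24 to 2.32) in the outermost 500 bp inside the spans, 1.79 (1.29 to 2.42) at 500 to 1000 bp inside and 3.55 (2.89 to 4.32) at 1 to 2 kb inside. Spans under 2 kb do not reach this last bin, which covers 28.4 kb against 50 kb at 1 to 2 kb outside, so longer genes weigh more in it. Over all protein-coding genes under 10 kb these inner bins had 0.753, 0.922 and 0.837 sites per kb. Outside the forkhead genes the density was 2.92 (2.29 to 3.67) in the first 500 bp, with an interval that overlaps those of the inner bins, 3.68 (3.17 to 4.25) at 1 to 2 kb outside and 1.43 (1.28 to 1.58) at 5 to 10 kb outside. In serum-2i Tdg cells the outermost 500 bp inside, 1 to 2 kb inside, 1 to 2 kb outside and 5 to 10 kb outside had 0.76, 0.774, 0.84 and 0.556 sites per kb, with intervals that overlap each other. For 14 short members whose strand and outer start RefSeq gives, the bin from 500 to 1000 bp behind the start held 2 sites (0.286 per kb, 0.0346 to 1.03) in serum Tdg cells, against 17 (2.43 per kb, 1.41 to 3.89) in the 500 bp before the start and 104 (3.71 per kb, 3.03 to 4.50) at 3 to 5 kb behind it. The low bin lies inside all 14 genes, whereas the bin at 3 to 5 kb lies outside those with spans under 3 kb. The first 500 bp behind the start held 14 sites (2 per kb, 1.09 to 3.36). Over all protein-coding genes under 10 kb with such a start, the low bin had 0.542 sites per kb. The 500 bp before the start had 0.701 there, and the bin at 3 to 5 kb had 0.454.

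**Figure D4:**
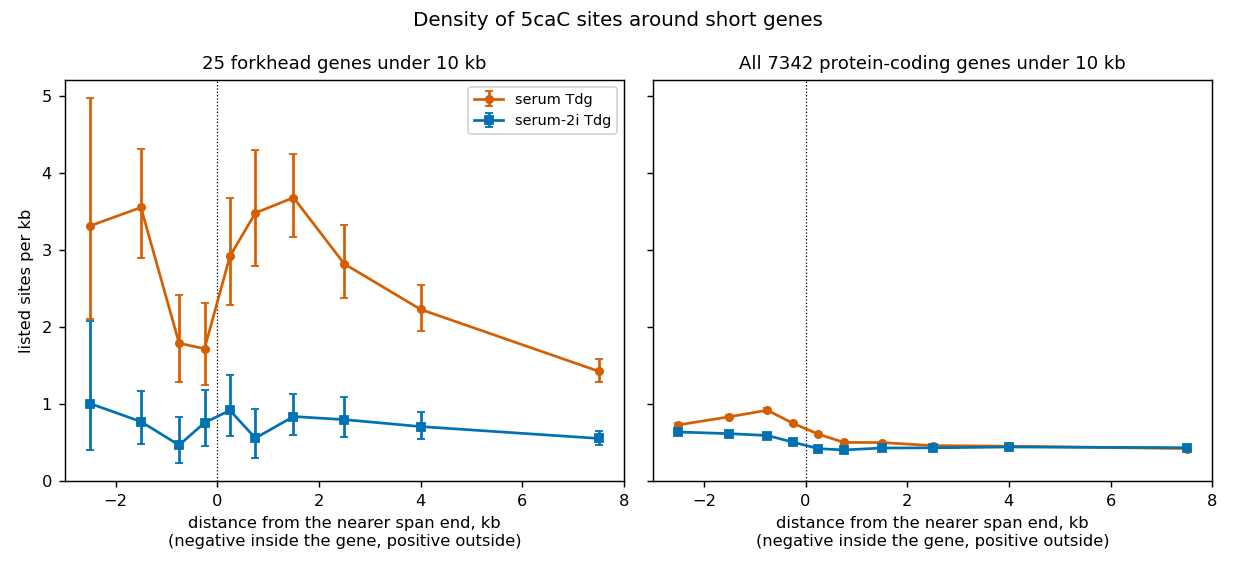
Listed 5caC sites per kb by distance from the nearer end of the gene span, negative inside and positive outside, for the 25 forkhead genes under 10 kb (left) and all 7342 protein-coding genes under 10 kb (right), in serum Tdg and serum-2i Tdg cells. Error bars are exact Poisson 95% intervals for counting error. The forkhead curve in serum Tdg cells has 1.72 sites per kb just inside the gene end and 3.68 at 1 to 2 kb outside, and stays above the serum-2i curve at every distance shown.

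Some of the short genes are neighbours, so their flanks are not independent. On chromosome 8, Foxf1, Foxc2 and Foxl1 lie within chr8:121079386-121135644, counted with 5 kb on either side. This 56.3 kb held 193 sites with summed coverage 4764.5 in serum Tdg cells, 41 with 611.5 in serum-2i Tdg cells, 8 in serum wt and 9 in serum-2i wt cells. The ratio between media in Tdg cells was -3.68 (-3.77 to -3.60). Only 43 of the 193 serum Tdg sites lay in the 3 genes. The 28.02 kb between Foxf1 and Foxc2 held 64 sites in serum Tdg and 17 in serum-2i Tdg cells, and the 8.79 kb between Foxc2 and Foxl1 held 60 and 8. Foxd2 and Foxe3 on chromosome 4 share chr4:114901280-114931067, with 61 sites against 8 and none in wt cells, a ratio of -4.81 (-5.04 to -4.59). Foxq1, a factor of hair development, lies with Foxf2 and Foxc1 in 262 kb of chromosome 13 (chr13:31553170-31815635), which held 189 sites against 105, a ratio of -2.04 (-2.10 to -1.98).

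**Figure D5:**
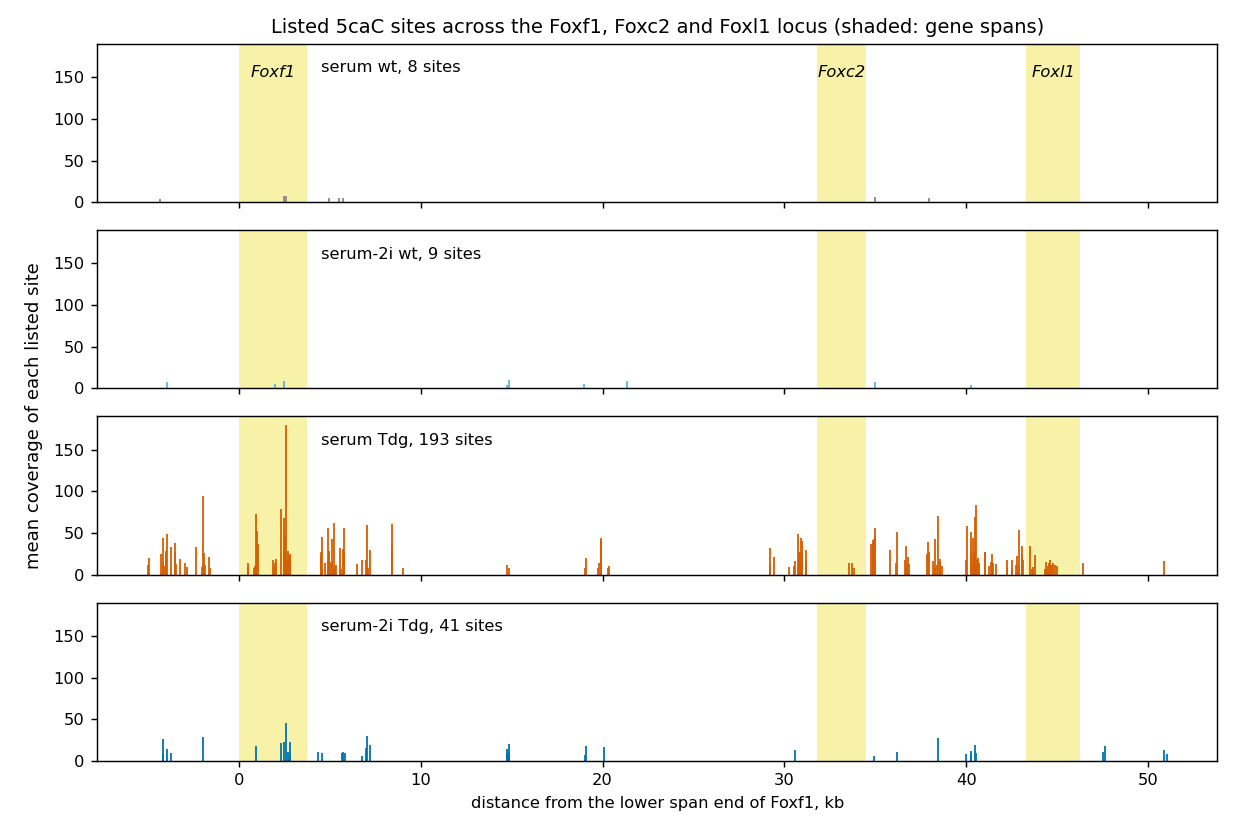
Mean coverage of every listed 5caC site (vertical lines) across the Foxf1, Foxc2 and Foxl1 locus in the 4 groups, by distance in kb from the lower span end of Foxf1. Shaded bands are the 3 gene spans. The serum Tdg panel has 193 sites with the tallest, 179.5, in Foxf1, whereas the serum-2i Tdg panel has 41 and the wt panels 8 and 9.

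The comparison of Tdg with wt cells describes where listed coverage differed between cells with these labels, and dependence on the genotype was not tested. In serum-2i, 20 members were listed in both genotypes and 8 of 28 in Tdg cells alone, near the 25.4% of all protein-coding genes with a site in a serum-2i group. Of the 20, 1 was higher in Tdg cells, 7 were lower and 12 were between, with a median of -0.35. Among all 11788 protein-coding genes listed in both, 10.1% were higher, 26.7% were lower, and the median was -0.32. The higher member was Foxo6, at 1.11 (0.62 to 1.65). Of the 7 lower calls 1 was left by listed sites and 1 with the median of all genes set to 0. The lower members were Foxj3 (-1.62), Foxa3 (-1.24), Foxj1 (-1.17), Foxk2 (-1.15), Foxr1 (-1.08), Foxi3 (-1.05) and Foxn1 (-1.03). These ratios are of shares: in absolute terms each had more sites in Tdg cells, as for Foxk2 with 31 against 11. Foxn3, Foxp1, Foxo1 and Foxo3, with 80, 59, 9 and 31 sites in wt cells, had ratios from -0.19 to -0.02. At the 145 forkhead positions listed in both genotypes, coverage was higher in Tdg cells at 132, with a median log2 ratio of coverage of 1.19, against 1.21 over all such positions. The minimum for listing was 6 in serum-2i Tdg and 4 in serum-2i wt cells. At wt sites below 6 a listed Tdg value was therefore always higher.

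In serum, 7 members had a site in wt cells (Foxa3, Foxf1, Foxj1, Foxk1, Foxn3, Foxp2 and Foxp4), and all 7 also had one in Tdg cells, as did 97.6% of all protein-coding genes with a serum wt site. A gene with few wt sites enters this ratio only through them, so the counts lead. By ratio 0 members were higher in Tdg cells, 3 were lower (Foxf1, Foxj1 and Foxp2) and 4 were between, against 3.69% and 56.7% of 3255 protein-coding genes. The direction depends on the scaling: with the median of all genes (-1.33) set to 0, 3 members were higher and 1 was lower, and the members' median turned from -1.03 to 0.29. Of the 18 serum wt sites, 14 (77.8%) were listed in serum Tdg cells, with higher coverage at all 14 and a median log2 ratio of coverage of 1.91. Over all autosomal serum wt sites 54.6% were, with higher coverage in Tdg cells at 4646 of 4719 and a median of 2.21. The minimum for listing was 6 in serum Tdg and 3 in serum wt cells. At wt sites below 6 a listed Tdg value was therefore always higher, which raises these counts and medians. The 2 Foxf1 sites had coverage 8 and 7 in wt cells and 68.5 and 179.5 in Tdg cells. The 7 Foxp4 sites lay between 3 and 5 in wt cells, and 6 of them had 10.5 to 75.5 in Tdg cells. The 2 serum wt sites of Foxp2, at chr6:14901369 and chr6:14901375, had coverage 6.5 and 17 and were listed in no other group. Their values in the other groups are unknown, and as close neighbours these sites can share reads.

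In wt cells the media were compared over the same 7 members. By ratio 1 (Foxn3) was higher in serum-2i, 4 (Foxf1, Foxj1, Foxp2 and Foxp4) were lower and 2 were between, against 5.24% and 59.1% of 2957 protein-coding genes, whose median was -1.52. Another 13 of the 20 members listed in a wt group were listed in serum-2i wt cells alone, against 73.1% of all protein-coding genes. The comparison shares its groups with those above. Summed over all members, the log2 ratio between media was 0.07 (-0.13 to 0.28) for wt cells and -0.43 (-0.45 to -0.41) for Tdg cells. Over all protein-coding genes these sums gave 0.05 and -0.09. Such sums mix span lengths. For members under 10 kb alone, wt cells gave -3.11 (-3.59 to -2.62) and Tdg cells -3.01. Over all protein-coding genes of that length the sums gave -1.30 and -1.41. The forkhead wt value rests on only 4 serum sites in 2 members and 8 serum-2i sites in 4 members. The long subfamilies held 15 of the 18 serum wt sites, and their ratio was 0.29 (0.07 to 0.52) for wt and -0.18 for Tdg cells. Whether ratios differ between genotypes was not tested.

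The genes of pathways that work with forkhead factors were read from a list of 15. In Tdg cells 6 of them were higher in serum-2i, 3 were lower and 6 were between, with a median of 0.71, against the 27.5% higher and 25.6% lower over all protein-coding genes. By listed sites 3 were higher and 2 lower, with a median of 0.29. Among the partners of Foxh1 in NODAL signalling, the ligand gene Nodal had 14 serum and 12 serum-2i sites (-1.52, -1.69 to -1.35), and the co-receptor gene Tdgf1 had 2 and 10 (1.43, 1.09 to 1.79). Smad2, Smad3 and Smad4, the signal transducers, were between. Of the PI3K pathway genes that control FOXO factors, Pik3ca and Akt2 were higher (1.57 and 1.21), Akt1 was lower (-1.33) and Sgk1 was between. Of the Groucho corepressors, Tle1 and Tle4 were higher (2.03 and 1.99), Tle2 was lower (-1.13) and Tle3 was between. The partner genes thus lay on both sides, and 13 of the 15 spans exceed 10 kb.

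Other families of developmental regulators are given as counts. Of 5 autosomal Gata genes all 5 listed in both media were lower in serum-2i Tdg cells, with a median of -2.84. Of 12 Tbx genes 9 were listed in both media, and of these 8 were lower and 1 was between (-2.83). Another 2 Tbx genes were listed in serum-2i alone and 1 in serum alone. Of 18 Sox genes 10 were listed in both media, with 7 lower, 1 higher and 2 between (-1.22). Another 5 Sox genes were listed in serum alone and 3 in neither medium. Among all protein-coding genes listed in both media, 25.6% were lower and 27.5% were higher. The forkhead median of -0.99 was nearest that of the Sox genes, but these medians mix span lengths. They also leave out genes listed in 1 medium alone, 13 of them forkhead members. Under 10 kb the medians were -2.23 for forkhead, -1.90 for Sox and -4.88 for Tbx genes. Over all protein-coding genes of that length the median was -1.12, and no Gata gene was that short. No difference between families was tested.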

How the data were processed

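Members and gene lists were chosen with earlier results of these data known. Per the labels' protocols, glycosylation blocked 5hmC and methylation blocked unmodified CGs, 5caC was decarboxylated and tagged by an engineered SssI methyltransferase, and tagged DNA was enriched and sequenced on an Ion Proton. Per the submitters' processing notes, reads were placed on mm10. Aligner, site caller and listing rule: not given in the sources used here. Per the labels, the control samples served to make the final coverage table. The deposited coverage signal was a multiple of 0.5 in all 1183229 entries and was read as the mean of 2 technical replicates. Without replicate values, the count models planned could not be run, and no p-value was computed. Read depth per library is unknown, so summed listed coverage stood in for it.

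Sites and coverage were summed in RefSeq spans and 5 kb flanks with Python 3.11.15 (pandas 2.3.3, numpy 2.4.6, scipy 1.17.1). Calls needed a 2-fold difference in coverage share and a 95% conditional Clopper-Pearson interval without 0, and this calculation was tested on simulated data. Named with full values were members with at least 10 sites in a Tdg group, the 5 lowest and 5 highest ratios, members listed in 1 Tdg group alone or with a serum wt site, overlapping genes and the partner list, except 1 member and 2 partner genes that are not reported here and enter only counts and summary values. Promoter sequences were those of RefSeq.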

Additional observations from a re-analysis of the deposited data

Results flagged for a closer look

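Foxp2 and Foxn3 had ratios of opposite sign under the same contrast, and the difference between the ratios was not tested. For Foxp2 the log2 ratio of serum-2i to serum was 0.57 (95% interval 0.34 to 0.82) in Tdg cells and -5.46 (-6.26 to -4.70) in wt cells. Its ratio of Tdg to wt cells was 0.70 (0.09 to 1.39) in serum-2i and -5.33 (-5.80 to -4.84) in serum. Both negative values rest on the 2 serum wt sites at chr6:14901369 and chr6:14901375, near the lower span end, which no other group lists. For Foxn3 the ratio of Tdg to wt cells was -0.19 (-0.27 to -0.11) in serum-2i and 0.98 (0.40 to 1.62) in serum, where wt cells had 2 sites. Intervals cover counting error only.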

How the results depend on the processing

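No paired analysis was possible because the table gives 1 value per group, so the replicate block and leaving out a replicate were not run. Of 137 alternative values of single-member ratios between media in Tdg cells, 124 kept direction and side of the 2-fold limit, 7 lost the call (Foxa3, Foxe3, Foxh1, Foxi1, Foxi2, Foxi3 and Foxr1, all by listed sites), 2 gained it and 4 turned: Foxn2 to -0.10 by listed sites, Foxp2 to -1.05 and Foxr1 to 0.34 with 5 kb flanks, and Foxm1 to 0.01 (0.0066) without the site shared with Tex52. Of 134 alternative values of the main results 95 stayed within 1.5 times a count within the exact 95% interval of a share, or, for a median, within its order-statistic interval, which is the whole range where members are few.

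In the media comparison of Tdg cells, the 2 higher members became 1 by listed sites and 1 at a minimum of 10. The 14 lower became 8 by listed sites and 26 with flanks, where 1 member was listed in serum alone and all 11 of the short set were lower. Higher partner genes became 3 by listed sites. Between media in wt cells, higher members became 0 by listed sites, 0 at a minimum of 10, 0 at a minimum of 6 (chosen after seeing the data) and 2 with the median of all genes set to 0. Lower members became 1, 0 and 2 under the first 3 of these and 7 with flanks, and 1 was listed in serum wt alone at either minimum. For Tdg against wt in serum-2i, higher members became 0 by listed sites and at minimums of 10 and 6, 2 after median centring and 3 with flanks. Lower members became 1 by listed sites, 1 after centring and 4 with flanks, and the centred median was -0.029. In serum, centring, which moved the median of all genes from -1.33 to 0, gave 3 higher, 1 lower and a member median of 0.29. Lower members became 1 by listed sites and 1 at a minimum of 10, where the median was -8.52 from a single gene. At a minimum of 10, 1 member and 1 site remained in serum wt and 65 sites in serum-2i wt cells. With flanks, sites were 28 in serum wt and 1918 in serum Tdg cells. Within 2 kb of a span end lay 9.38% and 4.18% of the sites of members over 10 kb in serum and serum-2i Tdg cells. The causes were not tested. Coverage minimums differ between wt and Tdg groups, and serum wt cells had too few sites to support a ratio for most members.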

Other observations

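Tight runs of listed sites, with gaps of at most 100 bp, lay in a few members. The longest in serum Tdg cells was in Foxf1, 12 sites in 329 bp at chr8:121086866-121087194 with a mean coverage of 40.4, and the longest Foxf1 run in serum-2i Tdg cells had 3 sites. Foxp1 had 11 sites in 464 bp (chr6:99485247-99485710, mean 32.7), Foxp4 10 in 350 bp (chr17:47878221-47878570, mean 32.6) and Foxo6 9 in 224 bp (chr4:120268949-120269172, mean 23.8). In serum-2i Tdg cells the longest run was in Foxn3, 9 sites in 353 bp (chr12:99426326-99426678, mean 17.8), followed by Foxm1 with 8 in 278 bp (chr6:128365670-128365947, mean 18.8). Neighbouring CGs can share reads, so the sites of a run are not independent.

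The single sites with most coverage were in Foxp1 at chr6:99009893, with 180 in serum Tdg and 40 in serum-2i Tdg cells, and in Foxf1 at chr8:121086970, with 179.5 and 45.5 and with 7 in serum wt cells. In serum-2i Tdg cells the highest was in Foxn3 at chr12:99222233, with 142.5 against 32 in serum Tdg and 21 in serum-2i wt cells. Of the positions in forkhead genes, 534 were listed in both Tdg groups, 34.6% of the serum-2i and 49.1% of the serum sites, against 28.8% and 52.9% over all autosomal positions. The sites of Foxo6 were mostly listed in serum alone (40, with 5 in serum-2i alone and 19 in both), and those of Foxo3 mostly in serum-2i alone (114, with 24 in serum alone and 32 in both).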
